A study of Saccharomyces cerevisiae with 40 samples.

Results

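The comparison concerned a diploid budding yeast line named H2, which had adapted to abrupt heat and was then returned to 30 °C, set against populations that had only been through the heat. It rests on 8 of the 40 arrays of the series, chosen by their labelled condition. The relaxed group held 4 arrays of the H2 line after 450 generations of abrupt heat followed by another 600 generations at 30 °C. The heat group held 4 arrays of the diploid ancestor's descendants after 450 generations at 39 °C. For reference, the fit of 18 arrays also held populations taken over 450 generations through a gradual rise of heat between 30 °C and 39 °C (4 arrays), an unevolved clone with 3 copies of chromosome III (1 array), an unevolved clone with 1 copy (1 array), populations kept 450 generations at 30 °C (2 arrays) and the diploid ancestor (2 arrays). RNA came from populations in mid-log phase, all after 18 generations without stress, so a difference between groups was one that had outlasted the growth temperature itself. The labels give no strain genotype, do not say which heat array, if any, was made from the H2 population, and do not say whether the 4 relaxed arrays were separate cultures. The p-values therefore rest on a spread between arrays, which may be partly technical, and do not measure the spread between independent populations.

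A yeast cell that gains a chromosome usually transcribes most genes on it in proportion to their copies, and the extra protein load is costly to growth. Duplication of a whole chromosome arises far more often than a point mutation in any chosen gene, so it is a common early answer to a strong stress, and it can be lost again when the stress is gone. Some genes escape the dosage effect through feedback, among them several ribosomal protein genes. The question here was which expression changes of the heat populations were undone along with the extra chromosome III.

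The values were log2 array intensities (RMA), placed on a common scale again because the authors had normalized the arrays in separate sets. The authors' set that held the 4 relaxed arrays also held heat array 2, the trisomic and monosomic clones and ancestor array 1. Heat arrays 1 and 3 formed another set, and heat array 4 shared a set with a 30 °C array. The set was kept in the fit as a random block, so the within-set difference from heat array 2 carried the most weight. Spread between heat arrays of different sets was then largely assigned to the set. The standard errors and p-values thus do not measure the spread between the heat populations. SPI1, for one, had a standard deviation of 1.075 over the 4 heat arrays and a fitted standard error of 0.28. Over 5318 genes, the standard deviation of the log2 difference between 2 relaxed arrays was 0.179 to 0.242. Between the relaxed arrays and heat array 2 it was 0.221 to 0.273, and between the relaxed arrays and heat arrays 1, 3 and 4 it was 0.335 to 0.415. Heat arrays differed among themselves by 0.223 to 0.470. Without heat array 2, limma called 1 gene higher (RPS14B) and 0 lower, so the other calls of this fit needed that array. No heat array was then left in the set of the relaxed arrays, so the loss of calls does not show that its values alone made them. With no set term, 300 genes were called, 132 of them also in the main fit. For 87 of the 103 genes called on chromosome III, the relaxed arrays did not overlap the 4 heat arrays. The mean of chromosome III was −0.453 without heat array 2, against −0.465 with it. The fitted difference then turned its sign for 3 named genes (PHO11, SRO9 and YGP1).

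In the H2 line at 30 °C, 174 genes were lower and 40 higher than in the heat populations at a limma adjusted p under 0.05. That is 3.27% and 0.752% of the 5318 genes tested, 4.02% together, and the median gene differed by 0.02 in log2. An unadjusted p under 0.05 was reached by 14.9% of genes, and for 10.2% the 4 relaxed arrays did not overlap the 4 heat arrays. Chromosome III held 103 of the 174 lower genes and none of the higher ones. Outside it, 71 genes were lower (1.37% of 5174) and 40 higher (0.773%). The counts depended on single arrays. Leaving out relaxed array 1 gave 242 lower and 103 higher genes, leaving out relaxed array 4 gave 72 higher and leaving out relaxed array 3 gave 26 higher.

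Chromosome III was lower in the H2 line at 30 °C than in heat and stood at the level of the ancestor. Relative to the mean of the heat arrays, its 144 tested genes (of 148 on the array) averaged −0.44, −0.43, −0.44 and −0.44 in log2 on the 4 relaxed arrays, against −0.04, 0.03, −0.03 and 0.04 on the heat arrays. The 2 arrays kept at 30 °C stood at −0.44 and −0.46 on the same scale, and the 2 ancestor arrays at −0.44 and −0.47. The trisomic clone stood at 0.02, among the heat arrays, and the monosomic clone at −0.89. The relaxed arrays thus did not overlap the heat arrays, and they differed from the nearest ancestor array by less than the heat arrays differed among themselves. The difference of −0.437 between group means had p = 0.0286 in a two-sided exact permutation test, the smallest that 70 arrangements of 4 against 4 arrays allow (0.1524 after adjustment over 16 chromosomes). Chromosomes II and XI reached the same p with differences of 0.014 and 0.010, so chromosome III stood out by the size of its difference and not by its p. Within the set shared with heat array 2 the difference was −0.467. No other chromosome moved by more than 0.043 in size. Such a mean over a population cannot tell fewer cells with the extra chromosome from less RNA per copy.

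**Figure D1:**
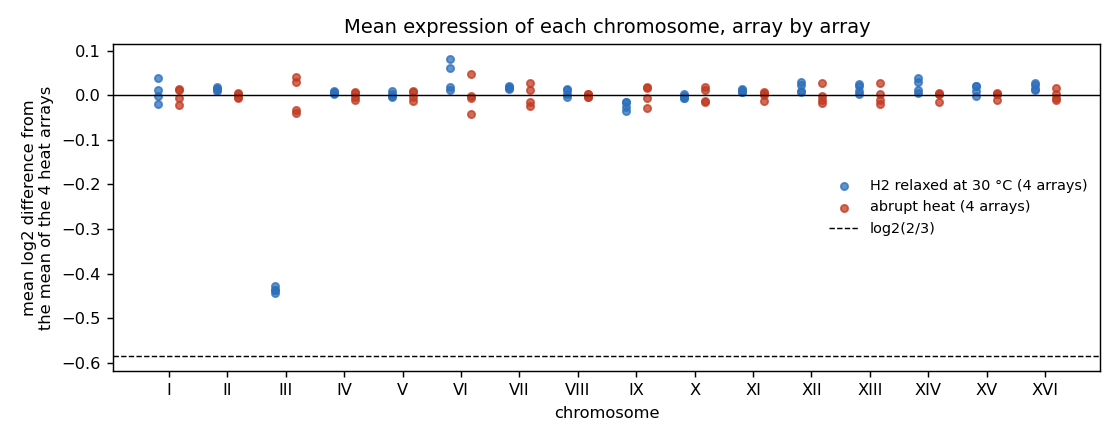
Mean log2 difference of each chromosome's tested genes from the mean of the 4 heat arrays (vertical axis), for each relaxed array (blue) and each heat array (red), by chromosome; the dashed line marks log2(2/3). The 4 relaxed arrays stood between −0.44 and −0.43 on chromosome III, and all other points lay within about 0.1 of 0.

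Gene by gene, the fall ran along the whole chromosome. Of 144 genes, 141 had a lower fitted value in the relaxed arrays and 103 were called lower (71.5%), with 0 called higher and 0 higher at an unadjusted p under 0.05. The left arm held 57 of the genes, with a mean of −0.465 and 39 called lower. The right arm held 87, with the same mean of −0.465 and 64 called lower. The median over the chromosome was −0.464. Log2(2/3), the value for a loss of 1 copy in 3 with RNA in proportion, is −0.585. The 95% interval lay above that value for 41 genes, below it for 5, and held 0 for 18. With the genes in 3 equal groups by their level in the heat arrays, the median difference was −0.426 in the low group, −0.562 in the middle group and −0.396 in the high group. Array signals flatten near background and near saturation, and the part of that in these values was not tested.

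The largest called falls on the chromosome included genes of glucose phosphorylation and amino acid traffic. GLK1, the glucokinase that phosphorylates glucose on entry, had 11.48, 10.51, 10.77 and 10.75 in the relaxed arrays, against 11.37, 12.07, 11.80 and 11.96 in the heat arrays. Its fitted difference was −1.19 ± 0.22 (SE, adjusted p = 0.00424), and relaxed array 1 lay above heat array 1. ATG22, which exports amino acids from the vacuole, had 8.02, 8.28, 8.36 and 8.42 in the relaxed arrays, against 9.21, 9.38, 9.17 and 9.36 in the heat arrays, with no overlap (−1.13 ± 0.11, adjusted p = 4.29e-05). AGP1, a broad-range amino acid permease of the plasma membrane, had 9.70, 9.66, 9.59 and 9.48 in the relaxed arrays, against 10.71, 10.55, 11.38 and 10.69 in the heat arrays (−0.99 ± 0.15, adjusted p = 0.000886). All 3 fell by more than log2(2/3) in fitted value. They were also high in the trisomic clone, at 11.96, 9.47 and 10.81, against 11.12, 8.74 and 9.77 on ancestor array 1.

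The next called falls on the chromosome were YCL012C (−0.79 ± 0.08), an uncharacterized gene, YCP4 (−0.78 ± 0.07), a flavodoxin-like protein, and ERS1 (−0.77 ± 0.12), a relative of the human cystine transporter cystinosin. EGO2 (−0.74 ± 0.08), of the vacuolar complex that feeds amino acid signals to TORC1, and HCM1 (−0.70 ± 0.11), a forkhead factor of S phase, came after them. Each of these 5 had all 4 relaxed arrays below all 4 heat arrays. Of the 12 tested genes in a list of transcription regulators, 11 of them on chromosome III, 5 were called lower and 0 higher, where 71.5% of all tested genes of the chromosome were called lower. Of the 12, 2 had a positive difference, and the median was −0.394 against −0.464 over the chromosome. TUP1, the co-repressor of glucose-repressed, hypoxic and mating genes, had 10.73, 10.86, 10.60 and 10.62 in the relaxed arrays, against 11.39, 11.20, 11.45 and 10.97 in the heat arrays (−0.49 ± 0.08, adjusted p = 0.00181). RSC6, of the RSC chromatin remodeller, changed by −0.52 ± 0.07 and TAF2, of TFIID, by −0.57 ± 0.08. SRB8, of the Mediator kinase module, changed by −0.42 ± 0.09 and KAR4, a mating transcription factor, by −0.38 ± 0.08. None of 22 tested genes in a list of Tup1-Cyc8 targets was called in limma (1 reached an unadjusted p under 0.05 upwards and 3 downwards), and their median was 0.05.

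The least changed genes of chromosome III included PGK1 and RPS14A, both close to the top of the scale. PGK1, the glycolytic phosphoglycerate kinase, had 14.13, 14.16, 14.13 and 14.12 in the relaxed arrays, against 14.21, 14.23, 14.21 and 14.23 in the heat arrays. RPS14A, which encodes the ribosomal protein S14 (uS11), had 13.86, 13.84, 13.86 and 13.87 in the relaxed arrays, against 13.92, 13.96, 13.92 and 13.87 in the heat arrays. Both were called, each with a fitted change of −0.09 ± 0.02, but they lay close to the highest level on any array, 14.42. PGK1 was not called with the set as a fixed term (adjusted p = 0.0579). Neither gene was called on the values as deposited (adjusted p = 0.163 for RPS14A and 0.175 for PGK1). The same held with median centring (0.499 and 0.486) and with the 8 arrays alone (0.221 and 0.0967). SRD1, a factor of pre-rRNA processing, had a fitted difference of 0.12 ± 0.20, SRO9, an RNA-binding protein, −0.13 ± 0.13 and GEX1, a glutathione exchanger, −0.17 ± 0.14. Those 3 were not called and their groups overlapped. GEX1 has a near-identical copy, GEX2, on another chromosome, so its signal may be shared. HSP30 and CIT2 had larger differences that were not called. HSP30, a stress regulator of the plasma membrane proton pump, had 10.81, 10.01, 10.46 and 10.28 in the relaxed arrays, against 7.20, 11.52, 7.84 and 11.31 in the heat arrays. It was also split in the ancestor, at 10.53 and 7.03, and its difference of −0.91 ± 0.52 was not called (adjusted p = 0.448). CIT2, the peroxisomal citrate synthase of the retrograde response, was lower in all 4 relaxed arrays, at 10.34, 10.37, 10.41 and 9.85, against 10.56, 10.49, 10.98 and 11.82 in the heat arrays, but was not called (−0.40 ± 0.23, adjusted p = 0.437).

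**Figure D2:**
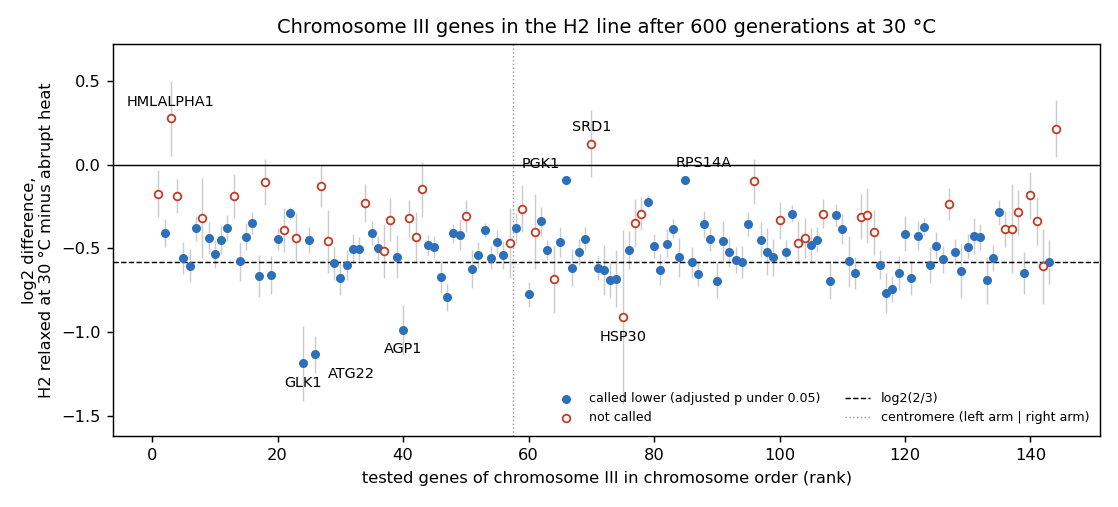
Fitted log2 difference (relaxed minus heat, vertical axis, bars ± SE) of the 144 tested genes of chromosome III in chromosome order (horizontal axis); filled points were called lower, open points were not called, the dashed line is log2(2/3) and the dotted line separates the arms. The 103 called genes lay between −1.19 and −0.09, and 38 of the 41 other genes lay below 0.

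Chromosome III accounted for most of what the heat populations had gained. Set against the ancestor, the heat populations had 80 genes called higher and 7 called lower (1.5% and 0.132% of genes tested, 1.64% together), and 75 of those 80 were on chromosome III, which is 52.1% of its tested genes. All 75 were called lower in the relaxed arrays than in heat, and none of the 75 was called between the relaxed arrays and the ancestor. The 144 genes averaged 0.002 between the relaxed arrays and the ancestor, against 0.467 between the heat arrays and the ancestor. These comparisons share arrays, so an error in a heat array moves the first and the second in opposite directions. In a fit that shares no array, heat arrays 1, 3 and 4 were set against ancestor array 2 and the 2 arrays kept at 30 °C. It called 0 genes in limma after adjustment, and on chromosome III 72 genes were higher at an unadjusted p under 0.05. All 72 were lower in the relaxed arrays than on heat array 2, as were 98.6% of the chromosome's genes.

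Outside chromosome III the heat populations had few called changes to reverse. Against the ancestor, 5 genes were called higher and 7 lower, 0.232% of 5174. Of these 12, 6 were called in the opposite direction in the relaxed arrays against heat. Both comparisons hold the heat arrays, with opposite sign, so genes picked as changed in heat lean towards a reversal, and the 2.15% of all genes outside chromosome III called in either direction is no yardstick for them. RPS14B, RME1, VBA2, RAD34 and SPS4 were lower in heat than in the ancestor, and higher in the H2 line than in heat. BNA4, the last of the 6, had the opposite signs. No heat array is known to come from H2, so a reversal here compares populations and was not followed within 1 line. None of the 6 was called between the relaxed arrays and the ancestor. The reversed count was 0 without heat array 2 and 18 without relaxed array 1. In the fit that shares no array, 44 genes outside chromosome III were higher in heat at an unadjusted p under 0.05 and 0 after adjustment. Of these, 59.1% were lower in the relaxed arrays than on heat array 2, against 42.1% of all genes there, and their median was −0.036. Another 53 genes were lower in heat, and 67.9% of them were higher in the relaxed arrays, against 57.5% of all genes, with a median of 0.085 beside 0.022 over all genes.

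RPS14B gave the clearest reversal. It is the other gene for ribosomal protein S14, the partner of RPS14A on chromosome III, and in yeast the S14 protein binds RPS14B transcripts and represses them. Their coding sequences are near-identical, and how well the probe sets separate them was not tested. Its level was 12.87, 12.85, 12.85 and 12.64 in the relaxed arrays, against 11.71, 11.99, 11.81 and 11.74 in the heat arrays. The trisomic clone, never heated, stood at 11.89, against 12.59 on ancestor array 1 and 12.62 on ancestor array 2. Arrays with the extra chromosome were thus all lower than arrays without it. The fitted difference was 0.85 ± 0.07 (adjusted p = 8.17e-06) between the relaxed arrays and heat, −0.66 between heat and ancestor, and 0.19 between the relaxed arrays and the ancestor (adjusted p = 0.543). RPS14B was the gene still called when heat array 2 was left out. In the fit that shares no array it had the smallest p of all genes, with a difference of −1.14 ± 0.13 and an adjusted p of 0.114, above the threshold. RPS14A and RPS14B were the only called members among 128 tested ribosomal protein genes, whose median was 0.008. The call of RPS14A was lost on the values as deposited and with median centring.

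RME1, VBA2 and RAD34 also had relaxed arrays entirely above the heat arrays. RME1, a repressor of entry into meiosis, had 7.84, 7.63, 7.95 and 7.74 in the relaxed arrays, against 7.55, 7.10, 6.95 and 7.03 in the heat arrays. It was at 7.21 in the trisomic clone, against 8.00 and 7.80 in the ancestor, and its fitted difference was 0.67 ± 0.14 (adjusted p = 0.0111). With the set as a fixed term it was not called (0.689, adjusted p = 0.0734). RME1 was the only called member of 13 tested haploid-specific genes, 9 of which had a positive difference. VBA2, a vacuolar permease for basic amino acids, had 7.99, 8.04, 8.02 and 8.00 in the relaxed arrays, against 7.592, 7.597, 7.495 and 7.412 in the heat arrays (0.43 ± 0.07, adjusted p = 0.0013). The trisomic clone had 7.60 for VBA2, level with the highest heat array, against 8.03 and 7.99 in the ancestor. RAD34, a relative of the nucleotide excision repair factor Rad4, had 5.96, 6.19, 6.01 and 6.00 in the relaxed arrays, against 5.74, 5.57, 5.82 and 5.55 in the heat arrays (0.47 ± 0.09, adjusted p = 0.00689). Here the trisomic clone, at 6.05, was close to the ancestor, at 6.09 and 6.22.

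The other two reversals came from part of the heat arrays. SPS4, a gene of mid-sporulation, had 6.54, 6.35, 6.41 and 6.31 in the relaxed arrays, against 6.49, 5.41, 6.47 and 6.13 in the heat arrays. Heat array 2 set its fitted difference of 0.89 ± 0.12 (adjusted p = 0.00058), which became 0.38 without that array. The trisomic clone was low as well, at 5.54. BNA4, the kynurenine monooxygenase of NAD synthesis from tryptophan, had 9.69, 9.57, 9.67 and 9.78 in the relaxed arrays, against 9.60, 10.46, 9.53 and 10.40 in the heat arrays. Heat arrays 2 and 4 were high and heat arrays 1 and 3 were not. Its fitted difference of −0.73 ± 0.11 (adjusted p = 0.000935) was −0.32 with no term for the set, where it was not called (adjusted p = 0.298).

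**Figure D3:**
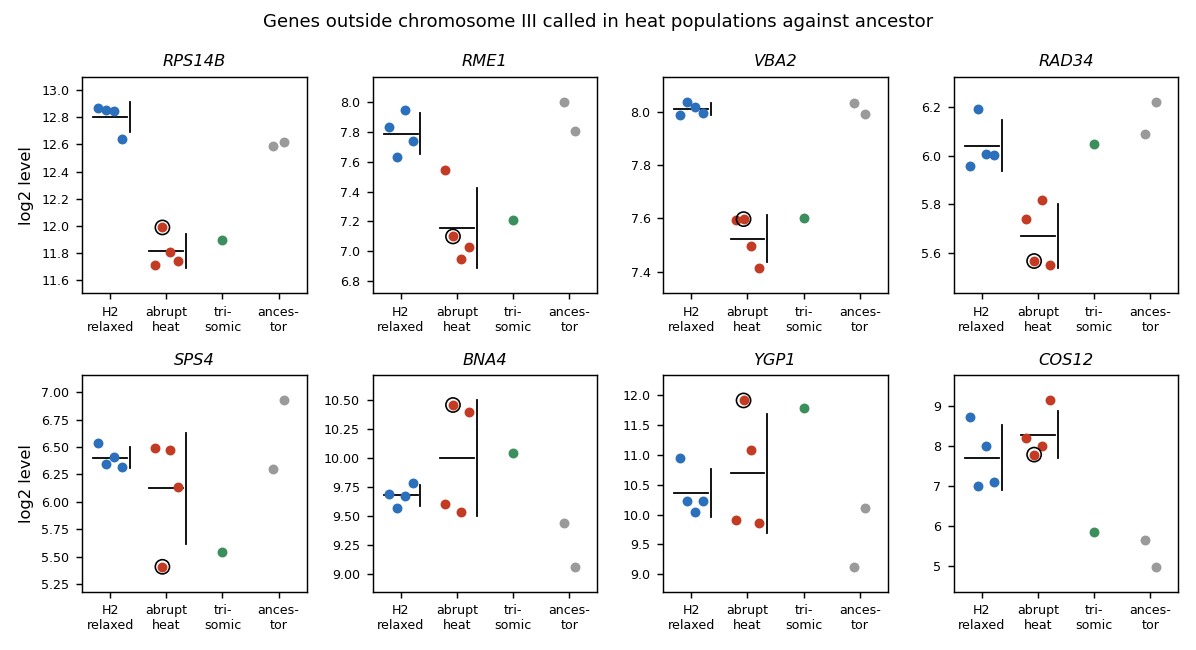
Log2 level (vertical axis, one scale per panel) of 8 genes outside chromosome III that were called between heat populations and ancestor, in each relaxed array (blue), heat array (red, array 2 circled), the trisomic clone (green) and the 2 ancestor arrays (grey); bars are the mean and SD of 4 arrays. RPS14B, RME1, VBA2 and RAD34 had every relaxed array above every heat array, and COS12 stayed at 7.00 to 8.72 in the relaxed arrays.

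The other 6 heat changes outside chromosome III were not called as reversed, and they fell into different cases. MET17, the O-acetylhomoserine sulfhydrylase needed to make methionine and cysteine, lay below background in all 4 relaxed arrays (4.199 to 4.478) and all 4 heat arrays (3.82 to 4.34), against 11.06 and 11.88 in the ancestor. It was also at 3.92 and 4.26 in the populations kept at 30 °C, and at 10.78 in the trisomic clone. Its low level was therefore shared by evolved populations with and without heat. COS12, a subtelomeric membrane protein gene of a family with near-identical copies, had 8.72, 7.00, 8.01 and 7.10 in the relaxed arrays, against 8.21, 7.79, 8.01 and 9.14 in the heat arrays and 5.66 and 4.99 in the ancestor. The arrays kept at 30 °C had 7.69 and 6.96 for COS12. The relaxed arrays exceeded the ancestor by 2.18, with an adjusted p of 0.0646.

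Of the rest, YGP1, a secreted wall glycoprotein of starving cells, had 10.95, 10.23, 10.04 and 10.24 in the relaxed arrays, against 9.90, 11.91, 11.09 and 9.86 in the heat arrays and 9.12 and 10.11 in the ancestor. Its difference of −1.18 ± 0.39 from heat was not called (adjusted p = 0.129) and turned to 0.586 without heat array 2. SMF1, a manganese transporter, was lower in all 4 relaxed arrays, at 9.96, 9.62, 9.84 and 9.89, against 10.001, 10.13, 10.11 and 10.08 in the heat arrays and 9.55 and 9.52 in the ancestor. Its difference of −0.29 ± 0.10 was not called (adjusted p = 0.12). CCP1, the mitochondrial cytochrome c peroxidase, differed from heat by −0.16 ± 0.10 and AGA2, a subunit of the a-agglutinin of mating cells, by 0.51 ± 0.22, and neither was called.

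Few genes were called between the H2 line after 600 generations at 30 °C and its ancestor. The ancestor had only 2 arrays, in different sets, so a gene that was not called may still differ. COS12, for one, was not called at a difference of 2.18 (adjusted p = 0.0646). At the same threshold, 4 of 5318 were called (0.0752%), 1 higher (0.0188%) and 3 lower (0.0564%), and 346 had an unadjusted p under 0.05. MET17 was one of the lower genes, and no exact difference is given because it lay below background on all 4 relaxed arrays. CWP1, a cell wall mannoprotein linked to glucan, had 10.79, 10.96, 10.93 and 11.37 in the relaxed arrays, against 11.80, 11.75, 11.84 and 11.86 in the heat arrays and 12.08 and 11.53 in the ancestor. It was thus lower than both, by −0.79 ± 0.14 against heat (adjusted p = 0.00223) and by −1.002 against the ancestor (adjusted p = 0.00583). In the limma fit of 23 diploid arrays its difference from heat was −0.805 and was not called (adjusted p = 0.387). ECM13, a gene of unknown function, was at 6.10 to 6.51 in the relaxed arrays, against 6.799 to 7.372 in the heat arrays and 7.73 and 7.20 in the ancestor, a difference of −1.42 from the ancestor (adjusted p = 0.0295). HPA3, an N-acetyltransferase for D-amino acids, was 0.43 above the ancestor (adjusted p = 0.0295), with a difference of 0.10 ± 0.07 from heat.

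Among genes outside chromosome III that were lower in the H2 line than in heat, the largest fitted falls included GPH1, SPI1 and MSC1, which are in a list of general stress genes, and GAD1, which is not. GPH1, the glycogen phosphorylase, had 8.98, 7.22, 7.32 and 8.00 in the relaxed arrays, against 8.37, 9.77, 9.03 and 7.94 in the heat arrays (−1.69 ± 0.42, adjusted p = 0.032). SPI1, a wall protein of stationary phase, had 9.23, 8.47, 8.85 and 8.97 in the relaxed arrays, against 8.17, 10.36, 8.38 and 9.82 in the heat arrays (−1.26 ± 0.28, adjusted p = 0.0157). GAD1, the glutamate decarboxylase linked to oxidative stress tolerance, had 9.35, 8.11, 8.38 and 8.75 in the relaxed arrays, against 8.76, 10.03, 9.36 and 8.68 in the heat arrays (−1.25 ± 0.30, adjusted p = 0.0264). In all 3 the groups overlapped, heat array 2 was the highest of the 8 and relaxed array 1 was the highest relaxed array. The trisomic clone stood at 9.97, 10.51 and 10.04, against 8.56, 8.88 and 9.49 on ancestor array 1. The monosomic clone, with no extra chromosome, was also above ancestor array 1, at 9.425, 9.382 and 9.526. Ancestor array 2, of another set, was lower, at 7.895, 8.012 and 8.614. The fitted difference of SPI1 was −0.184 without heat array 2, and that of GPH1 was −0.749. With the set as a fixed term neither GPH1 (adjusted p = 0.0921) nor GAD1 (adjusted p = 0.0809) was called.

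Other large falls also had overlapping groups. YMR196W (−1.23 ± 0.20) and YDR222W (−0.86 ± 0.18) are uncharacterized, MSC1 (−1.02 ± 0.22) affects meiotic recombination, and NQM1 (−0.96 ± 0.18) is a transaldolase paralogue. GSP2 (−0.90 ± 0.16) is the minor Ran GTPase, TFS1 (−0.90 ± 0.21) inhibits carboxypeptidase Y, and YNR014W (−0.80 ± 0.20) is uncharacterized. With the set as a fixed term TFS1 (adjusted p = 0.0716) and YNR014W (adjusted p = 0.0808) were not called. Heat array 2 was the highest of the 8 arrays for 34 of the 71 lower genes outside chromosome III, against 5.9% of all genes there. It was the lowest for 16 of the 40 higher genes, against 8.0%. Over the 71 lower genes the median was 0.23 between heat and ancestor, and −0.254 between the relaxed arrays and the ancestor. A fall from heat was thus not by itself a return to the ancestor's level. Both medians share arrays with the comparison that picked the genes.

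In 30 of the 71 lower genes the relaxed arrays lay wholly below the heat arrays, as they did wholly above in 19 of the 40 higher genes. Groups did not overlap for 8.54% of all genes outside chromosome III, in either direction. DDR48, a stress protein induced by DNA damage and heat, had 9.997, 10.04, 9.81 and 10.30 in the relaxed arrays, against 10.59, 11.02, 10.70 and 10.57 in the heat arrays (−0.86 ± 0.14, adjusted p = 0.00157). ALD4, the mitochondrial aldehyde dehydrogenase that makes acetate, had 10.97, 10.75, 10.95 and 11.14 in the relaxed arrays, against 11.80, 11.78, 11.72 and 11.16 in the heat arrays (−0.78 ± 0.10, adjusted p = 0.00058). PNC1, the nicotinamidase of NAD salvage, had 11.68, 11.17, 11.53 and 11.69 in the relaxed arrays, against 11.71, 12.24, 12.17 and 12.10 in the heat arrays (−0.72 ± 0.16, adjusted p = 0.0127). Some further lower calls were picked after their values were seen. They were the vacuolar proteinase gene PEP4 (−0.50 ± 0.09), the carboxypeptidase Y gene PRC1 (−0.31 ± 0.08) and the proteinase B inhibitor gene PBI2 (−0.63 ± 0.12). Vacuolar proteolysis genes were not examined as a list, so these picks give no result for that pathway. Of all genes outside chromosome III, 1.37% were called lower.

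**Figure D4:**
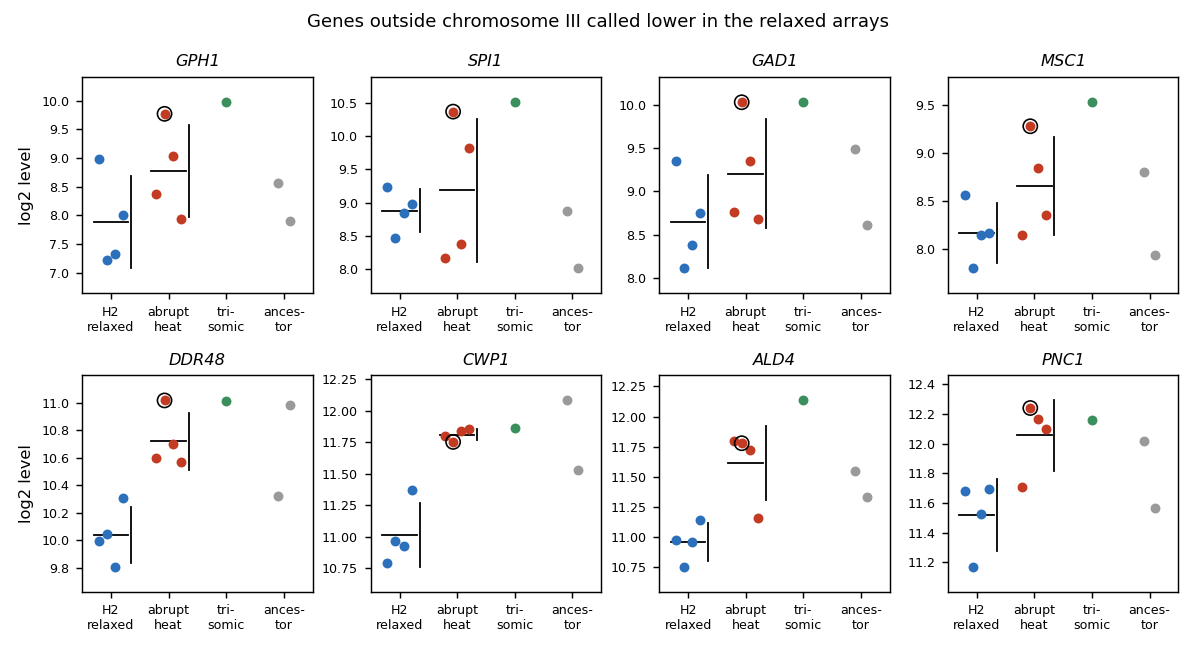
Log2 level (vertical axis, one scale per panel) of 8 genes outside chromosome III called lower in the relaxed arrays (blue) than in the heat arrays (red, array 2 circled), with the trisomic clone (green) and the 2 ancestor arrays (grey); bars are the mean and SD of 4 arrays. For GPH1, SPI1, GAD1 and MSC1 the groups overlapped and heat array 2 was highest, whereas DDR48, CWP1, ALD4 and PNC1 had every relaxed array below every heat array.

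Among the higher genes outside chromosome III, large fitted rises included LSO1, PHO11, HFM1 and SPS4. LSO1, a small protein gene induced by low iron, had 4.00, 4.78, 5.41 and 4.98 in the relaxed arrays (adjusted p = 0.0396). It lay below background in all 4 heat arrays (3.28 to 3.63) and also in relaxed array 1 (background 4.63). The relaxed mean was 1.15-fold above the background of the heat arrays, and no exact difference is given. LSO1 was below background in the ancestor (3.97 and 3.60) and the trisomic clone (3.91) as well. It was not called with the set as a fixed term (adjusted p = 0.17). ARN2, a siderophore transporter, had 9.06, 9.25, 9.38 and 9.01 in the relaxed arrays, against 8.47, 8.64, 8.18 and 8.31 in the heat arrays (0.54 ± 0.14, adjusted p = 0.0482). These were the 2 called members of the iron regulon list, in which 23 of 25 tested genes had a positive difference and the median was 0.158. Over all genes 0.752% were called higher, 2978 of 5318 had a positive difference and the median was 0.017. PHO11, a secreted acid phosphatase with a near-identical copy, had 11.59, 12.29, 12.31 and 11.57 in the relaxed arrays, against 12.44, 10.62, 11.85 and 12.71 in the heat arrays. Its call (1.09 ± 0.29, adjusted p = 0.0479) rested on heat array 2 and its difference was −0.01 without it. In the phosphate list of 18 tested genes it was the only one called higher, and GPP2, a glycerol-phosphate phosphatase, was called lower (−0.46 ± 0.12). HFM1, a helicase of meiotic crossing over, changed by 0.96 ± 0.15, with overlapping groups. In the meiosis and sporulation list of 30 tested genes SPS4 was the only call, 15 genes were positive and 15 negative, and the median was −0.018.

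The remaining named rises had no shared role. PGU1, a secreted polygalacturonase, had 6.72, 6.86, 6.67 and 6.77 in the relaxed arrays, against 6.19, 5.94, 5.99 and 6.60 in the heat arrays (0.73 ± 0.11, adjusted p = 0.00103). The uncharacterized genes YGR035W-A (0.80 ± 0.17), YMR230W-A (0.62 ± 0.13) and RRT15 (0.59 ± 0.13) also had every relaxed array above every heat array. STE14 (0.58 ± 0.11), the methyltransferase that finishes a-factor and Ras, and YHK8 (0.73 ± 0.19), a presumed membrane transporter, were called with overlapping groups. With the set as a fixed term YGR035W-A (adjusted p = 0.0886), YMR230W-A (adjusted p = 0.0818), RRT15 (adjusted p = 0.0614) and YHK8 (adjusted p = 0.132) were not called. PRT1 (0.22 ± 0.05) and RPG1 (0.31 ± 0.08), for subunits of translation initiation factor eIF3, were called higher too and were picked after their values were seen. The eIF3 genes were not examined as a list, and 0.773% of all genes outside chromosome III were called higher.

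The unevolved trisomic clone moved the other way at most of these genes. The difference between that clone and ancestor array 1 uses no relaxed or heat array, but both arrays are in the normalization set of the relaxed arrays and help estimate that set in the fit. It was positive for 68 of the 71 genes lower in the H2 line (42.3% of all genes outside chromosome III) and negative for 36 of the 40 higher genes (56.8%). Its median was 0.229 over the lower and −0.206 over the higher genes, against −0.018 over all genes there. Across genes, Pearson's r between both differences was −0.514 on chromosome III (n = 144) and −0.455 outside it (n = 5174), and with the plain difference from heat array 2, which holds neither, it was −0.521 and −0.493. Genes are not independent replicates. With the monosomic clone minus the same ancestor array, r outside chromosome III was 0.158. The monosomic difference was negative for 43 of the 71 lower genes and positive for 28, with a median of −0.065. Of the 40 higher genes it was positive for 30 and negative for 10, with a median of 0.105. No share over all genes was taken for these counts. Since each clone and the ancestor have 1 array in that set, these differences had no replicate check.

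Gene lists described the same contrast by pathway. The list of Msn2/Msn4 targets, the general stress genes, had 35 tested members, all with a negative fitted difference. Of these, 10 were called lower and 0 higher, and the median was −0.541. Over all genes tested 3.27% were called lower, 2317 of 5318 had a negative difference and the median was 0.017. The called members were GLK1, GPH1, SPI1, MSC1, ALD4, PNC1, GND2, HOR7, NTH1 and GRE3, the first on chromosome III. HSP12, a membrane stress protein, had the largest fitted difference but was not called (−1.79 ± 0.61, adjusted p = 0.14), with 12.05, 10.16, 10.70 and 11.84 in the relaxed arrays, against 11.05, 13.30, 12.41 and 9.39 in the heat arrays. The median of the list, relaxed mean minus each heat array, was −0.057, −0.545, −0.603 and −0.183 for heat arrays 1 to 4, so its size varied with the heat array while its sign did not. It had 0 called members without heat array 2 (median −0.439) and 21 called lower without relaxed array 1. With the 8 arrays alone 0 were called (median −0.323), with the set as a fixed term 4 were lower and with 23 diploid arrays 5. In the trisomic clone against ancestor array 1 its median was 0.426, with 33 members positive, and in the monosomic clone it was 0.044. The list median was 0.302 between heat and ancestor, and −0.209 between the relaxed arrays and the ancestor. In the median, the relaxed arrays thus lay below the ancestor and not only back at its level. HXK1, DDR2, HSP12 and GPH1 of this list also varied widely among the relaxed arrays themselves, over 1.76 to 1.99 in log2, and relaxed array 1 was the highest for each.

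Storage carbohydrate and respiratory genes gave smaller values. Of 20 trehalose and glycogen genes, 19 were negative and 3 were called lower (GPH1, the neutral trehalase NTH1 and the UDP-glucose pyrophosphorylase UGP1), with a median of −0.344. Against heat array 4 that median was 0.004. Its calls numbered 0 without heat array 2, with the set as a fixed term, with 23 diploid arrays or with the 8 arrays alone, and 8 without relaxed array 1. Of 24 genes of the TCA and glyoxylate cycles, 19 were negative and 2 were called, LSC1 (−0.28 ± 0.06) and LSC2 (−0.40 ± 0.10), the subunits of succinyl-CoA ligase. Oxidative phosphorylation had 35 of 40 genes negative, a median of −0.154 and 1 call, COX5B (−0.78 ± 0.21), the hypoxic form of cytochrome oxidase subunit V. That median was 0.194 against heat array 1 and 0.124 against heat array 4, so its sign depended on the heat array. Of 13 genes of NAD synthesis, BNA4 and BNA1 (−0.51 ± 0.11) were called lower, and the median was −0.033. Heat shock chaperones had no call in limma among 28 genes (unadjusted p was under 0.05 for 1 higher and 5 lower) and a median of −0.038, with HSP104 at −0.34 ± 0.16.

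Lists of ribosome and mitochondrial ribosome genes had small positive medians, where 2978 of all 5318 genes were positive and 14.9% reached an unadjusted p under 0.05 in either direction. Of 74 ribosome biogenesis genes, 68 were positive with a median of 0.130. None was called higher in limma (11 higher at an unadjusted p under 0.05) and KRR1, on chromosome III, was called lower. Of 69 mitochondrial ribosomal protein genes, 62 were positive with a median of 0.142. None was called higher (10 at an unadjusted p under 0.05), and IMG1, on chromosome III, was called lower at −0.45 ± 0.10. In the fit without heat array 2 these medians were 0.32 and −0.005. The plain medians, relaxed mean minus the mean of heat arrays 1, 3 and 4, were 0.207 and 0.152. That fit had no heat array in the set of the relaxed arrays, so its −0.005 does not show that the other heat arrays lacked the difference. Against heat arrays 1 to 4 singly, the mitochondrial median was 0.2, 0.166, 0.25 and −0.039. Seripauperin and anaerobic mannoprotein genes, many of them near-identical to each other, were negative in 11 of 12, with a median of −0.299 and PAU17 (−0.52 ± 0.13) called lower. Proteasome genes (34 tested) and copper uptake genes (8 tested) had no call and no gene under an unadjusted p of 0.05.

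**Figure D5:**
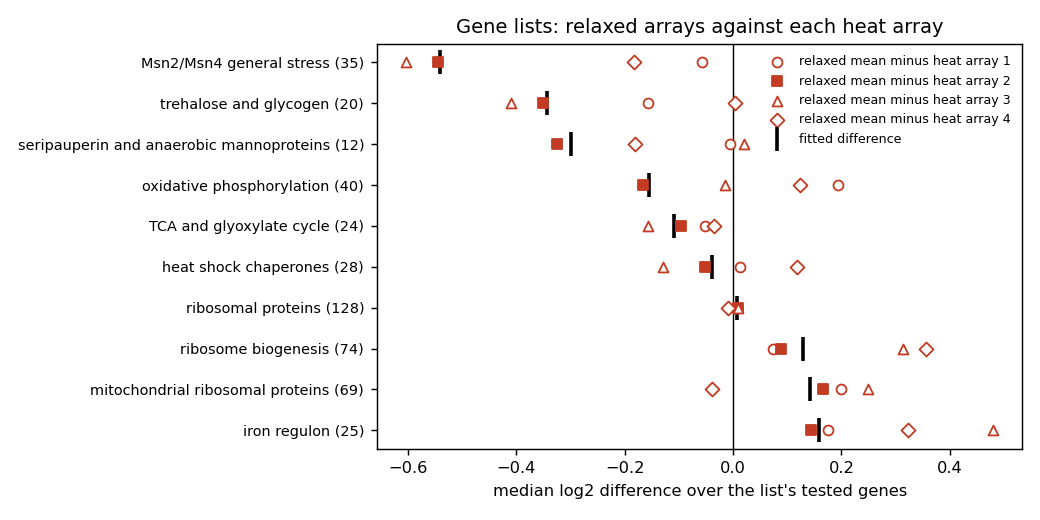
Median log2 difference (horizontal axis) over the tested genes of 10 gene lists (number of genes in brackets), for the mean of the relaxed arrays minus each heat array (open circle, filled square, triangle and diamond for heat arrays 1 to 4) and for the fitted difference (black bar). The general stress list lay below 0 against all 4 heat arrays, from −0.603 to −0.057, whereas oxidative phosphorylation lay on both sides of 0.

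Markers of haploid cells, which a diploid population could hold, and of sporulating cells were examined. The reversed genes RME1 and SPS4 are themselves members of the haploid-specific and sporulation sums. The summed level of 6 a-specific genes was 8.58 to 8.65 in log2 in the relaxed arrays, against 8.31 to 9.32 in the heat arrays and 8.82 to 9.04 in the ancestor. For 4 alpha-specific genes it was 8.31 to 8.58 in the relaxed arrays, against 8.26 to 9.15 in the heat arrays and 8.38 to 8.63 in the ancestor. That of 8 haploid-specific genes was 9.47 to 9.62 in the relaxed arrays, against 9.22 to 9.66 in the heat arrays and 9.45 to 9.61 in the ancestor. The summed level of 5 sporulation genes was 7.74 to 7.96 in the relaxed arrays and 7.79 to 8.08 in the heat arrays. The relaxed range lay within or overlapped the heat range for each of these lists. At the mating-type loci, whose silent copies on chromosome III share sequence with the expressed locus, HMRA1 (−0.38 ± 0.27), HMRA2 (−0.38 ± 0.11) and HMLALPHA1 (0.28 ± 0.22) were not called.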

How the data were processed

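The samples were diploid populations and clones grown in rich medium, measured on Affymetrix yeast arrays. The deposited values were log2 intensities made by the authors with RMA, per the submitters' processing notes. Values identical to the last digit showed 9 separately normalized sets, so quantile normalization was repeated over the 18 diploid rich-medium arrays. Probe sets of 1 gene were averaged, and names, chromosomes and gene order came from the platform annotation and RefSeq R64. A gene was tested if above background on 2 or more arrays, background being the 95th percentile of probe sets matching no R64 gene, most of them for another yeast (4.57 to 4.66 on the 8 arrays). The fit was limma 3.58.1 in R 4.3.3 (trended eBayes, set as random block with consensus correlation 0.817, 11 residual degrees of freedom), with Benjamini-Hochberg adjustment over 5318 genes at 0.05. The number of arrays limits the precision. Errors beside differences are SE. A reversed gene was called both in heat against ancestor and, oppositely, in the relaxed arrays against heat. The scripts were tested on simulated data. Alternatives covered normalization, the set term, the arrays fitted, array weights, filters, probe sets, a replicate block and leaving out each array. Named genes were the 12 largest falls and 12 largest rises outside chromosome III among called genes, the 8 largest falls and 6 least changed genes on it, all reversed genes, called or largest members of each of 37 gene lists, and MET17, LYS2, YGP1 and SPI1. The members and lists were chosen with earlier results of these data known.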

Additional observations from a re-analysis of the deposited data

Results flagged for a closer look

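In the named genes, 88 groups of 4 arrays were examined for an array far from its group, by Dixon's test at 95%, and 6 were found, where chance alone gives about 1 in 20. Relaxed array 4 was low for RPS14B, at 12.639, and still above every heat array. Relaxed array 2 was low for RPS14A, at 13.838, by less than 0.03 in log2. Relaxed array 1 was high for NQM1, at 7.117, the highest relaxed value as in other stress genes. For YHK8, relaxed array 2 was high, at 7.619, and heat array 1 was high, at 7.149, where it met the other relaxed arrays. For LYS2, of lysine synthesis, relaxed array 3 was low, at 10.261, with a difference from heat of 0.15 ± 0.15 that was not called.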

How the results depend on the processing

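The mean of chromosome III was −0.478 to −0.437 under all settings but array weights, where it was −0.415, and −0.468 to −0.453 with each array left out in turn. Counts of called genes depended on the settings. With each array left out, higher genes numbered 1 to 103 (outside chromosome III also 1 to 103), lower genes 0 to 242, lower genes outside chromosome III 0 to 134 and reversed genes 0 to 18; the low ends came without heat array 2. With no set term, 125 were higher, all outside chromosome III. With the set as a fixed term, 33 outside chromosome III were lower. With the 8 arrays alone, 10 were higher and 51 lower, of which 10 and 6 lay outside chromosome III. With 23 diploid arrays, 19 were higher and 110 lower, of which 19 and 26 lay outside. With array weights, 543 were higher and 499 lower (543 and 398 outside) and 1 gene was reversed; the consensus correlation fell to 0.145 there, and 142 of the 214 calls were kept. Reversed genes numbered 12 on the values as deposited and 20 with the ancestor and 30 °C arrays together as baseline. The cause of these shifts was not tested. Same-numbered relaxed and heat arrays did not deviate together (correlations −0.262 to −0.068), so their numbers were not taken to pair them; with a replicate block, 1 gene was called higher and 0 lower. Signs turned for SRD1 (−0.008 with no set term, −0.006 with 8 arrays and with the replicate block), SRO9 (0.005, 0.007 and 0.007), GEX1 (0.02, 0.023 and 0.023) and LYS2 (−0.217, −0.218 and −0.218; −0.528 with array weights), none of them called. SPI1 was 0.142 with array weights and MET17, at background in both groups, −0.003 as deposited. With each array left out, PHO11 was −0.01 to 1.252, SRO9 −0.2 to 0.068 and YGP1 −1.437 to 0.586, and each turned its sign without heat array 2. Array signal near background or saturation limits what small differences can show.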
